A study of Mus musculus with 8 samples.

Results

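The genes described here encode proteins of the small nuclear ribonucleoproteins (snRNPs) and their close partners in the spliceosome. They were taken as the genes whose symbol starts with Snrp, Snrnp, Sf3a, Sf3b, Prpf, or Lsm followed by a digit, without Lsm10 and Lsm11, which belong to the U7 snRNP of histone mRNA. This gave 47 of the 18193 genes measured, each read from its probe set of highest mean across the 8 arrays, and 116 probe sets in all. The RNA came from round spermatids, the haploid cells that follow meiosis, of 4 BrdtΔBD1 mutant and 4 control preparations of strain 129 Sv/Ev. Brdt encodes a testis-specific bromodomain protein that binds acetylated histones, and ΔBD1 names loss of its first bromodomain. Each array held the pooled cells of 7 adult animals, aged 2 to 4 months, so a value is that of a pool. The labels give neither the allele copies of the mutants nor the genotype of the controls beyond the word control. The values are log2 intensities per probe set as deposited by the authors, and the array number, 4 per group, limits their precision. Markers of round spermatids were high in both groups, and some markers of other testis cells were high as well, as given below. Tnp1, a transition protein of spermatid chromatin, averaged 15.32 in mutant and 15.26 in control preparations, and Prm1, a protamine, averaged 15.42 in mutant and 15.15 in control preparations (log2, n = 4 each).

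Pre-mRNA splicing is carried out by the U1, U2, U4, U5 and U6 snRNPs, each made of a small nuclear RNA and its proteins. A ring of Sm proteins surrounds the RNA of U1, U2, U4 and U5, while U6 carries a ring of Lsm proteins. U1 and U2 recognise the 5′ splice site and the branch point, the U4/U6 and U5 snRNPs then join as a tri-snRNP, and the Prp19 complex takes part in activation of the assembled spliceosome. Testis is known for its many alternatively spliced transcripts, and spermatids store mRNA for later translation, which brings in the Lsm proteins of cytoplasmic mRNA particles.

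Of the 47 genes, 32 had a higher mean in mutant than in control preparations and 15 a lower one. The median log2 difference, mutant minus control, was 0.16, beside −0.02 over all genes, of which 46.3% were higher in the mutants. Over the genes with a mean log2 intensity of at least 4 the median was −0.001, and 49.9% were higher. No gene of the group passed an adjusted p of 0.05 in the limma fit of the 4 mutant against the 4 control arrays, in which 3.71% of all genes were called, 1.86% risen and 1.85% fallen. The least adjusted p was 0.080, for Lsm6. At an unadjusted p under 0.05, 11 genes were higher and 1 was lower in the mutants, beside 11% and 9.16% of all genes. The replicate numbers in the labels were shared by the genotypes, and same-numbered arrays deviated together. With the replicate number added to the fit as a block, the count in the group was 8 risen and 0 fallen of 47, beside 6.6% and 4.94% of all genes, and beside 11% risen among the genes with a mean log2 intensity of at least 4, a level that 44 of the 47 reached. These 8 genes were Snrpb, Snrpe, Sf3b3, Sf3b6, Prpf4b, Snrnp40, Lsm6 and Prpf19. Their calls changed as single pairs of arrays were left out, and so did the share of all genes that rose. Without pair 1 the block gave 4 risen genes, beside 3.45% of all genes. Of the 4, Lsm6, Sf3b3 and Snrpb are among the 8 and Snrnp25 is not. Without pair 2 it gave 6 risen, Lsm6, Prpf19, Prpf4b, Sf3b3, Snrnp40 and Snrpb, beside 7.71%, and 1 fallen, Sf3b5. Without pair 3 it gave 0, beside 0.434%, and without pair 4 it gave 1, Prpf4b, beside 1.97%. Snrpe and Sf3b6 passed in none of these fits.

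**Figure D1:**
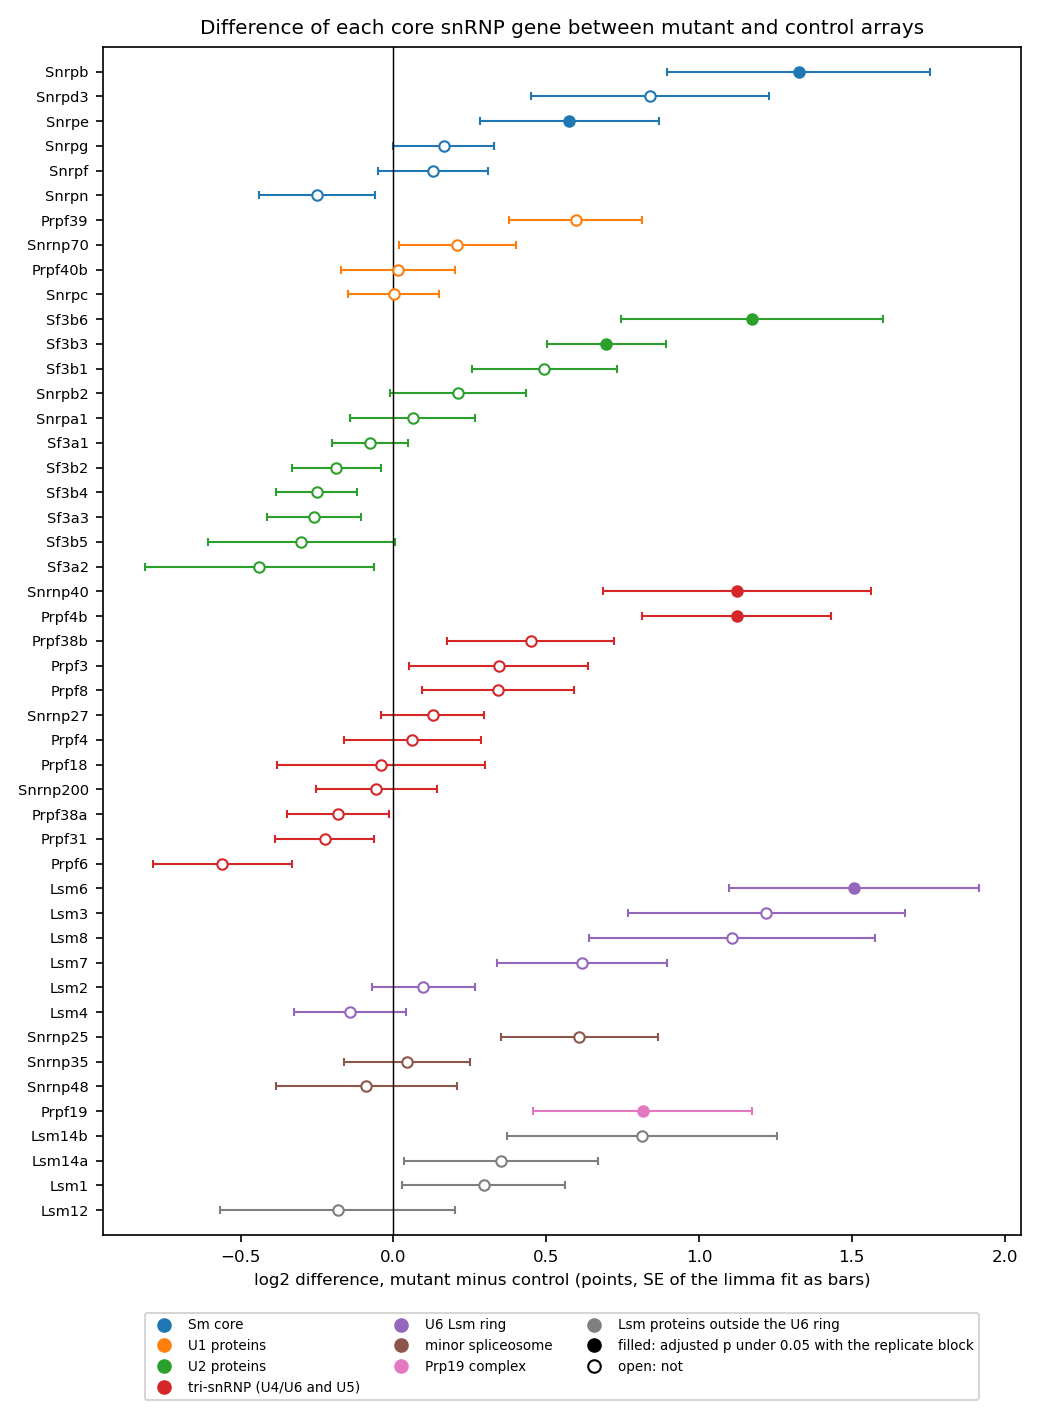
The log2 difference, mutant minus control, of each of the 47 genes on the horizontal axis, with bars of 1 standard error from the limma fit, ordered by the class of protein. The values run between −0.56 (Prpf6) and 1.51 (Lsm6), and the 8 genes that passed with the replicate block lie to the right of 0.

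The Sm core was measured by 6 genes, of which 5 had higher means in the mutants and 2, Snrpb and Snrpe, rose with the block. Snrpb, which encodes the ring proteins SmB and SmB′, had log2 intensities of 10.81, 10.96, 9.97 and 9.23 on mutant arrays 1 to 4, against 9.68, 8.87, 8.98 and 8.13 on control arrays 1 to 4. The groups overlapped, since mutant array 4 lay below control array 1, but every mutant array lay above the control array of its own number. The difference was 1.33 ± 0.43 (SE), a 2.51-fold higher value, with an adjusted p of 0.129 in limma and 0.015 with the replicate block. Snrpe, the ring protein SmE, had values of 11.71, 11.18, 10.99 and 10.47 in mutant and 11.04, 10.32, 10.68 and 10.01 in control preparations. This is a difference of 0.58 ± 0.29 (SE), with an adjusted p of 0.317 and 0.036 with the block, and the groups overlapped.

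Snrpd3, the ring protein SmD3, had values of 9.61, 9.74, 9.03 and 9.55 in mutant preparations, against 9.02, 9.06, 7.34 and 9.14 in control preparations. Control array 3 stood far below the other control arrays, and mutant array 3 was the lowest of its own group. The difference of 0.84 ± 0.39 (SE) had an adjusted p of 0.272, or 0.059 with the block. Snrpg and Snrpf, also of the ring, differed by 0.16 ± 0.17 and 0.13 ± 0.18 (SE). Snrpn, a near-identical paralog of Snrpb expressed mainly in brain, has 1 probe set used here, which was dim on every array, while 3 of the 6 probe sets that name both Snurf and Snrpn had means of 4.85 to 5.77. The values of the single-gene probe set were 2.36, 2.99, 2.91 and 2.75 in mutant and 2.64, 3.30, 3.17 and 2.90 in control preparations, lower in the mutant array of each pair, and the difference of −0.25 ± 0.19 (SE) had an adjusted p of 0.524. Probe sets of such close paralogs may share RNA, so the levels of either are uncertain.

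The U1 proteins had 4 genes, all with higher means in the mutants, and 0 passed in either fit. Prpf39, a U1-associated protein, had values of 4.10, 4.50, 4.32 and 4.19 in mutant preparations, against 3.17, 3.66, 4.27 and 3.63 in control preparations. Only control array 3 reached the mutant range, and the difference of 0.60 ± 0.22 (SE) had an adjusted p of 0.169, or 0.070 with the block. Snrnp70, the U1-70K protein that binds the first stem-loop of U1 RNA, had 10.04, 10.02, 10.09 and 10.15 in mutant and 10.26, 9.45, 10.16 and 9.59 in control preparations. The mutant arrays lay close together within the wider control range, and the adjusted p was 0.608. Snrpc, which steadies the contact of U1 with the 5′ splice site, averaged 12.09 ± 0.22 in mutant and 12.09 ± 0.18 in control preparations (SD, n = 4 each). Prpf40b differed by 0.01 ± 0.19 (SE).

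The U2 proteins were divided, with 5 of 11 genes higher and 6 lower in the mutants. Of these 11 genes, 2 rose with the block, both of the SF3B subcomplex that holds the branch point. Sf3b3, its propeller-shaped scaffold, had values of 7.63, 7.21, 6.96 and 6.83 in mutant preparations, against 6.74, 6.43, 6.47 and 6.18 in control preparations. The groups did not overlap, and the difference of 0.70 ± 0.19 (SE), 1.62-fold, had an adjusted p of 0.086, or 0.017 with the block. Sf3b6, the small subunit that sits near the branch-point adenosine, had 9.63, 9.02, 8.49 and 7.64 in mutant and 7.92, 7.29, 8.05 and 6.83 in control preparations. Mutant array 4 fell inside the control range, and the difference of 1.17 ± 0.43 (SE), 2.25-fold, had an adjusted p of 0.169, or 0.032 with the block.

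Sf3b1, the large SF3B subunit that clamps the branch helix, had 11.45, 12.03, 11.27 and 11.16 in mutant and 11.23, 11.34, 10.56 and 10.80 in control preparations. In each pair the mutant array held the higher value, with a difference of 0.49 ± 0.24 (SE), an adjusted p of 0.290 and 0.057 with the block. The other SF3B genes of the group had lower means in the mutants. Sf3b4, Sf3b2 and Sf3b5 differed by −0.25, −0.19 and −0.30, and none of them passed in either fit. The 3 SF3A genes, whose products tie SF3B to the rest of U2, had lower means in the mutants, with differences of −0.08 for Sf3a1, −0.44 for Sf3a2 and −0.26 for Sf3a3. Their standard errors were 0.12, 0.38 and 0.15. Snrpb2 and Snrpa1, the proteins U2-B″ and U2-A′ that bind a stem-loop of U2 RNA, differed by 0.21 ± 0.22 and 0.06 ± 0.21 (SE).

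The tri-snRNP had 12 genes, 7 with higher and 5 with lower means in the mutants, and 2 rose with the block. Prpf4b, a protein kinase that phosphorylates tri-snRNP proteins in human cells, had values of 6.32, 7.35, 5.88 and 6.20 in mutant preparations, against 5.30, 5.44, 4.85 and 5.65 in control preparations. The lowest mutant array lay above the highest control array, and the difference of 1.12 ± 0.31 (SE), 2.18-fold, had an adjusted p of 0.083, or 0.027 with the block. Snrnp40, a WD-repeat protein of U5, had 9.63, 8.40, 8.96 and 8.14 in mutant and 8.05, 7.65, 8.39 and 6.54 in control preparations. The groups overlapped, and the difference of 1.12 ± 0.44 (SE) had an adjusted p of 0.195, or 0.024 with the block.

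Prpf6, which bridges U5 and U4/U6, was the gene of the 47 with the lowest difference. Its values were 10.40, 10.51, 10.50 and 10.10 in mutant preparations, against 11.48, 10.90, 11.03 and 10.33 in control preparations. Mutant arrays were lower in each pair, with control array 4 inside the mutant range. The difference of −0.56 ± 0.23 (SE) had an adjusted p of 0.212, or 0.072 with the block. The proteins at the catalytic centre and the helicase that unwinds U4/U6 gave small differences. Prpf8, the scaffold of the active site, differed by 0.34 ± 0.25 and Snrnp200, the helicase, by −0.06 ± 0.20 (SE). Among the U4/U6 proteins, Prpf3 differed by 0.34 ± 0.29, Prpf4 by 0.06 ± 0.22 and Prpf31 by −0.23 ± 0.16 (SE). The other genes of the class, Prpf38b, Prpf38a, Snrnp27 and Prpf18, lay between −0.18 and 0.45, and none passed in either fit.

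The U6 Lsm ring had the highest median difference of the classes with more than 1 gene, 0.86 over 6 genes, of which 5 had higher means in the mutants and 1 rose with the block. Lsm6 had log2 intensities of 9.11, 8.42, 7.64 and 7.27 in mutant preparations, against 6.61, 7.20, 6.64 and 5.95 in control preparations. The groups did not overlap, and the difference of 1.51 ± 0.41 (SE), 2.84-fold, had an adjusted p of 0.080, or 0.019 with the block. Lsm3 had 10.23, 10.33, 9.20 and 8.18 in mutant and 8.64, 8.07, 8.51 and 7.83 in control preparations. Mutant array 4 lay inside the control range, the difference was 1.22 ± 0.45 (SE), and the adjusted p was 0.176, or 0.057 with the block. Without mutant array 4, Lsm3 differed by 1.66 and passed, at an adjusted p of 0.040.

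Lsm8, the member that sets the nuclear U6 ring apart from the cytoplasmic ring with Lsm1, had 9.63, 8.51, 7.50 and 7.23 in mutant preparations, against 7.47, 6.90, 7.04 and 7.02 in control preparations. Most of its difference of 1.11 ± 0.47 (SE) lay on mutant arrays 1 and 2, and the adjusted p was 0.228, or 0.086 with the block. Lsm7 differed by 0.62 ± 0.28 (SE), with 9.02 on mutant array 1 and 8.20, 7.69 and 7.88 on the other mutant arrays, against 7.62, 7.20, 7.73 and 7.78 on the control arrays. Lsm2 and Lsm4 differed by 0.10 ± 0.17 and −0.14 ± 0.18 (SE), and their groups overlapped.

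**Figure D2:**
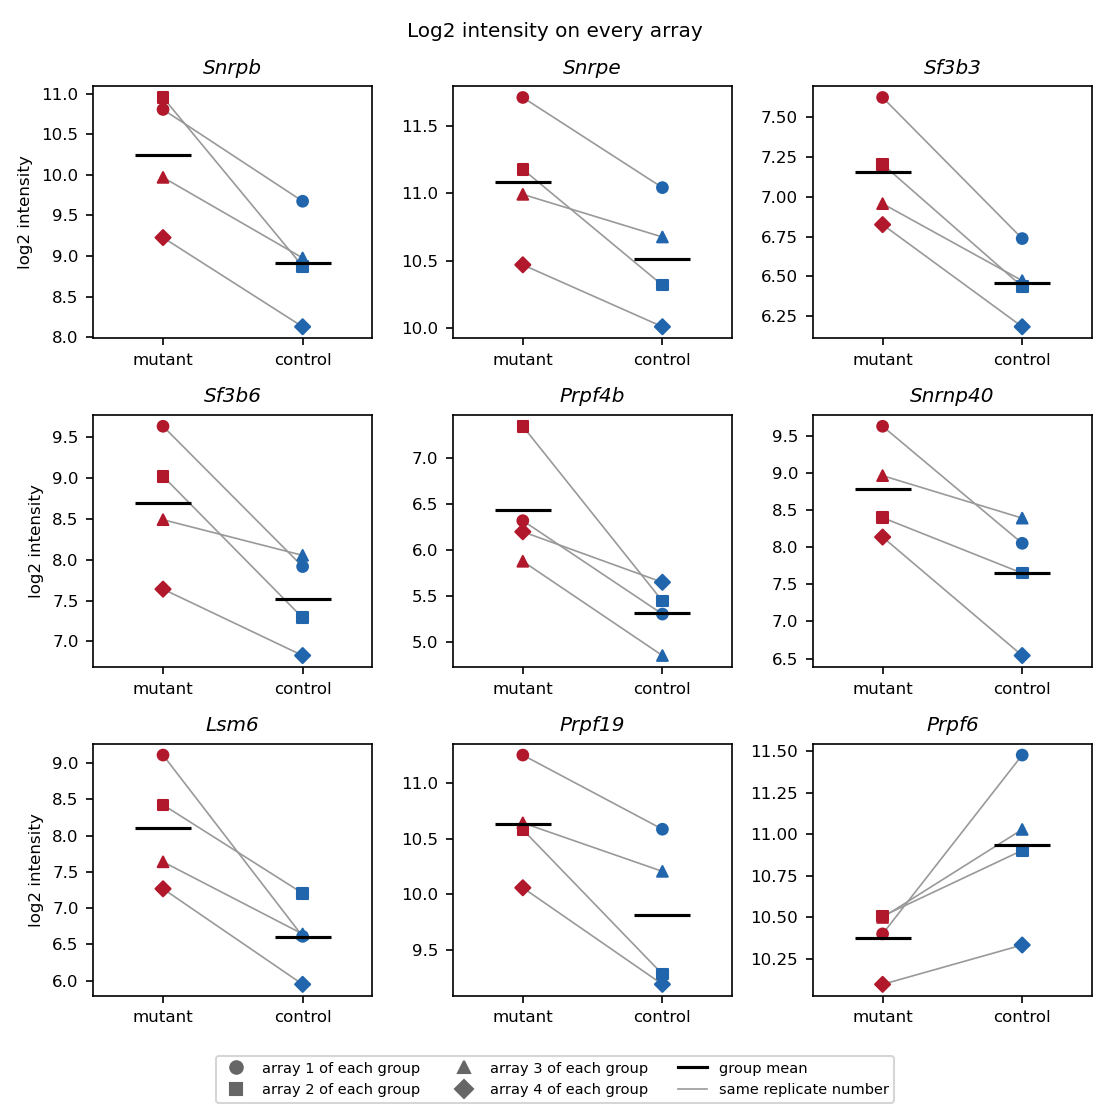
The log2 intensity of named genes on each array, mutant points left of control points, with the group mean as a short bar and grey lines joining arrays of the same replicate number. Lsm6, Sf3b3 and Prpf4b show no overlap between the groups, while Snrpb and Sf3b6 overlap by the lowest mutant array.

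Prpf19, the ubiquitin ligase at the core of the Prp19 complex, had values of 11.25, 10.58, 10.64 and 10.06 in mutant preparations, against 10.59, 9.29, 10.21 and 9.19 in control preparations. Every mutant array lay above its same-numbered control array, the groups overlapped, and the difference of 0.82 ± 0.36 (SE), 1.76-fold, had an adjusted p of 0.245, or 0.027 with the block. The minor spliceosome, which removes the rare U12-type introns, had 3 genes, and 0 passed in either fit. Snrnp25, a U11 protein, had 9.10, 8.87, 8.88 and 8.41 in mutant and 8.87, 7.81, 8.35 and 7.80 in control preparations, a difference of 0.61 ± 0.26 (SE) with an adjusted p of 0.228, or 0.052 with the block. Without pair 1 the blocked adjusted p of Snrnp25 was 0.049. Snrnp48, a U11 protein that contacts the 5′ splice site, differed by −0.09 ± 0.30 (SE), with 9.08 on control array 1 and 7.79 to 8.11 on the other control arrays, and its sign turned without control array 1. Snrnp35 differed by 0.04 ± 0.20 (SE).

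The Lsm genes outside the U6 ring, which belong to cytoplasmic mRNA particles and mRNA decay, had 3 of 4 higher means in the mutants, and 0 passed in either fit. Lsm14b, known from mRNA storage in mouse oocytes, had 8.64, 8.67, 7.34 and 6.65 in mutant preparations, against 7.22, 7.23, 7.07 and 6.52 in control preparations. Mutant arrays 1, 2 and 3 stood above all control arrays, array 3 by the least, while array 4 lay inside the control range, and the difference of 0.81 ± 0.44 (SE) had an adjusted p of 0.352. Lsm14a, its relative in processing bodies, had 7.90, 6.15, 7.15 and 7.26 in mutant and 6.59, 6.65, 6.89 and 6.91 in control preparations, a difference of 0.35 ± 0.32 (SE). Lsm1 and Lsm12 differed by 0.30 ± 0.27 and −0.18 ± 0.38 (SE).

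Over the 47 genes, 19 were higher in the mutants in each of the 4 pairs and 2 were lower in each, beside 17.7% and 18.9% of all genes and 23.5% higher among genes with a mean of at least 4. In 3 genes, Prpf4b, Sf3b3 and Lsm6, all mutant arrays lay above all control arrays, and in 0 genes all lay below. This is beside 6.15% above and 6.49% below among all genes, and 8.38% above among genes with a mean of at least 4, so the count was no higher than the background. The values sat on certain arrays. The highest of the 8 arrays was mutant array 1 for 17 of the 47 genes, mutant array 2 for 14 and control array 1 for 13, while mutant arrays 3 and 4 held 0 and 1. Among all genes the shares were 22.5% for mutant array 1, 13.8% for mutant array 2 and 20.7% for control array 1. For the Lsm ring, the median over its 6 genes of the deviation from each gene's own mean was 1.24, 0.58, −0.15 and −0.17 on mutant arrays 1 to 4, against −0.23, −0.43, −0.36 and −0.38 on control arrays 1 to 4.

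**Figure D3:**
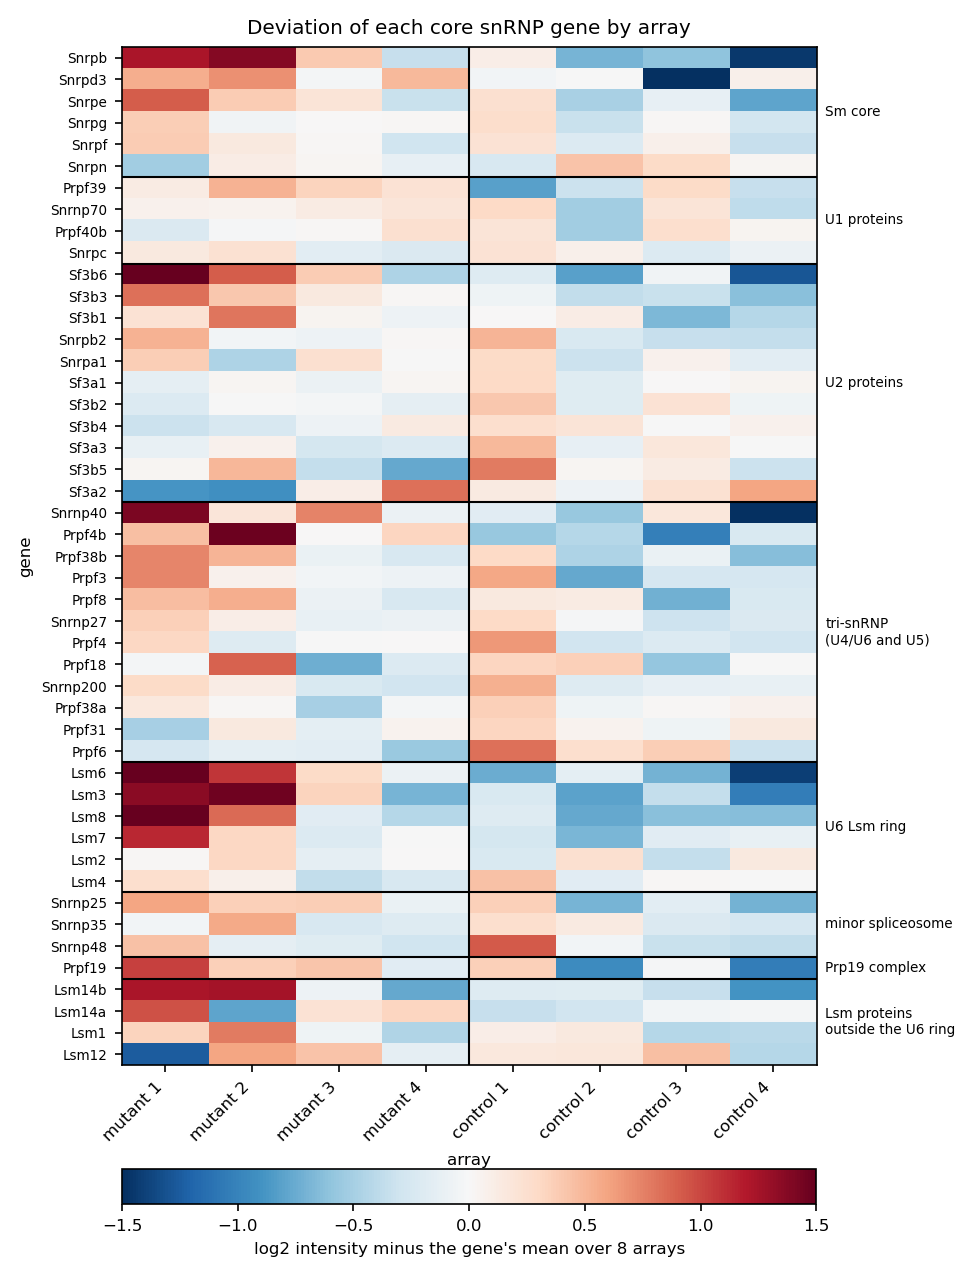
The deviation of each of the 47 genes from its own mean over 8 arrays, in log2 units, with mutant arrays left of control arrays and genes grouped by class; the colours end at 1.5 either way. Mutant arrays 1 and 2 and control array 1 hold most of the high values.

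Marker lists of other testis cells also differed between the arrays. The mean level of 24 spermatocyte markers was 9.24, 9.18, 8.61 and 8.34 on mutant arrays 1 to 4, against 8.70, 8.57, 8.37 and 8.28 on control arrays 1 to 4, highest on mutant arrays 1 and 2 and then control array 1. Of these markers 18 were higher in the mutants, 0 passed without the block, and the block called 4 higher and 1 lower. Over all genes the block called 6.6% risen and 4.94% fallen, and the fit without it 1.86% and 1.85%. Sycp3, a protein of the meiotic chromosome axis, averaged 12.04 in mutant and 11.05 in control preparations and rose with the block, at an adjusted p of 0.011. Rec8, the marker that fell with the block, averaged 10.23 in mutant and 10.90 in control preparations, at an adjusted p of 0.025. The 23 measured Sertoli cell markers averaged 6.93, 5.59, 7.21 and 6.77 on mutant arrays, against 4.67, 4.84, 5.50 and 5.39 on control arrays. Here mutant array 2 was the lowest of the mutants and control array 1 the lowest of all. Of these markers 22 were higher in the mutants, 6 rose without the block and 13 with it. Fabp5, a fatty acid binding protein, was 16.2-fold and Vim, an intermediate filament protein, 7.72-fold higher in the mutants, and both rose in both fits. Aard, Defb19, Cst12 and Cldn11 also rose in both fits and were 8.30-fold, 8.03-fold, 7.37-fold and 3.29-fold higher. Sox9 and Amh, taken as the defining genes of the list, averaged 3.80 and 1.95 in mutant and 3.80 and 1.97 in control preparations. Both were dim, which limits what they can show. The 18 spermatogonial markers ranged over 4.59 to 5.16 on mutant and 3.96 to 4.40 on control arrays. Of these 15 were higher in the mutants, 1 rose without the block (Etv5, 2.44-fold) and 5 with it, among them Uchl1 and Stra8, which were 2.97-fold and 2.88-fold higher. Zbtb16, the defining gene of the list, was dim and averaged 3.06 in mutant and 3.03 in control preparations. Of the 7 Leydig markers 1 rose, Aldh1a1, a retinal dehydrogenase, which averaged 5.99 in mutant and 3.49 in control preparations, and of the 15 peritubular, vascular and blood markers 1 rose, Lum, an extracellular matrix protein, which averaged 3.91 in mutant and 2.85 in control preparations. The defining markers of these lists did not pass in either fit. Cyp17a1 of Leydig cells averaged 3.36 in mutant and 2.31 in control preparations, and Acta2 of peritubular cells 5.46 in mutant and 5.20 in control preparations. The 16 round spermatid markers ranged over 13.53 to 13.80 on mutant and 13.46 to 13.72 on control arrays, with 0 called. The part of these cells in the results was not tested. In bulk preparations a change in the number of cells of a type and a change in RNA per cell cannot be told apart.

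RNA measures also set arrays apart. The difference between 3′ and 5′ Gapdh probe sets was 0.60, 0.33, 0.94 and 0.59 on mutant arrays, against 1.68, 0.48, 2.05 and 0.46 on control arrays, so control arrays 1 and 3 stood above the rest. Probe sets for 18S rRNA averaged 8.11, 5.40, 5.03 and 3.99 on mutant arrays, against 11.21, 5.51, 8.87 and 3.66 on control arrays. Without control arrays 1 and 3, 37 of the 47 genes had higher means in the mutants, the median difference was 0.32 and 0 genes passed, while 0.0989% of all genes rose.

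**Figure D4:**
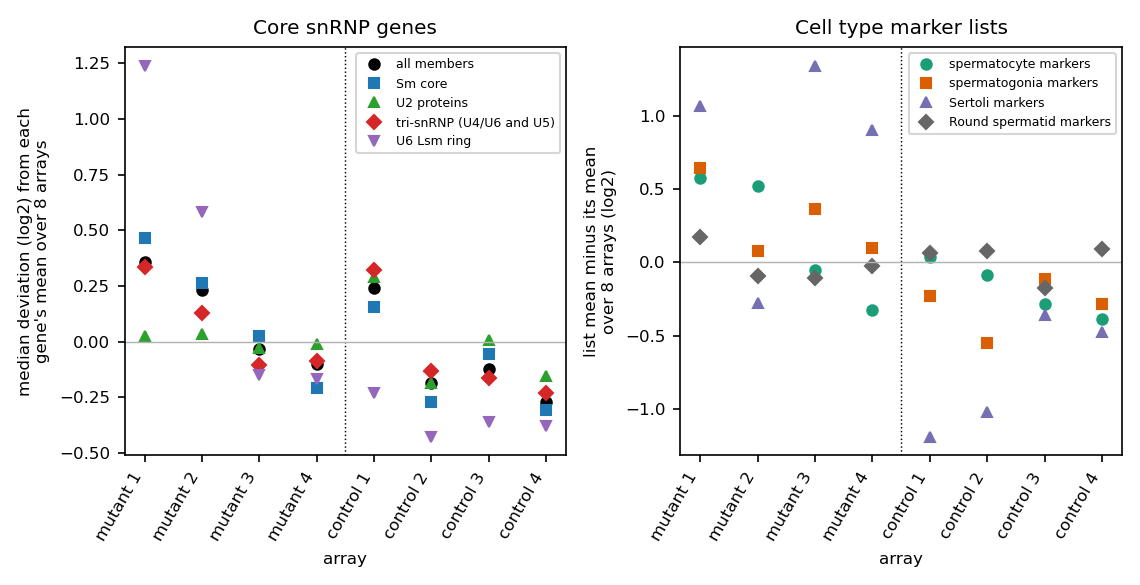
Left, the median log2 deviation from each gene's mean over 8 arrays, for all 47 genes and for 4 of their classes. Right, the mean log2 level of 4 marker lists less its own mean over the arrays, with mutant arrays left of control arrays in both. The Lsm ring is highest on mutant array 1, where the spermatocyte, spermatogonial and round spermatid means are also highest and the Sertoli mean is not.

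All 116 probe sets of the genes were also tested singly. Without the block 0 of them passed, with a least adjusted p of 0.079, and 1.42% of all probe sets were called. With the block 15 rose and 0 fell, beside 3.92% and 2.5% of all probe sets. Those shares include dim probe sets, and no share was taken among brighter ones alone. At gene level the risen share was 6.6% of all genes and 11% of those with a mean of at least 4. A mean under 4 was found for 41 of the 116. Of the 21 genes with at least 2 brighter probe sets, 11 had all of these higher in the mutants, 5 had all lower and 5 were mixed. Prpf19 had 4 brighter probe sets, with differences of 0.82, 0.64, 0.69 and 0.87, and all 4 rose with the block. The other brighter probe set of Snrpb differed by 1.09 ± 0.29 (SE), and its groups did not overlap. A second probe set of Sf3b6 differed by 1.49 ± 0.35 (SE) without overlap. Of the other brighter probe sets of Prpf4b, the one with a mean of 5.82 differed by 0.66 ± 0.36 (SE), overlapped and did not pass with the block, at an adjusted p of 0.129, and the one with a mean of 4.36 differed by 1.44 ± 0.36 (SE) without overlap and passed. For Lsm6 a second probe set differed by 1.28 ± 0.41 (SE) and did not pass with the block, and for Snrnp40 by 0.45 ± 0.20 (SE). The second brighter probe set of Prpf6 was lower by 0.58 on the log2 scale, with all mutant arrays below all control arrays. Unequal change among the probe sets of a gene was tested with limma's diffSplice, which called 0 of 21 genes here, none at an unadjusted p under 0.05 (least p 0.208), beside 0.906% of all genes tested.

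The start regions of some of the genes that rose with the block are printed to show a short sequence that several share. They are the 250 bases before the annotated start in RefSeq (GRCm38.p6), written 5′ to 3′ on the strand of the gene, and capitals mark CCGGAAG or its reverse complement, a core bound by ETS factors. Sf3b6 (chr12:4817358-4817607, plus strand) has 2 matches, at positions −85 and −70 from the start. Prpf4b (chr13:34875279-34875528, plus strand) has 1 match, and so has Prpf19 at its first start (chr19:10894981-10895230, plus strand). Lsm6 (chr8:78821153-78821402, minus strand) has none. Of the windows of risen genes not printed, that of Sf3b3 has 1 match, while those of Snrpe and of the other Prpf19 start have none.
Sf3b6: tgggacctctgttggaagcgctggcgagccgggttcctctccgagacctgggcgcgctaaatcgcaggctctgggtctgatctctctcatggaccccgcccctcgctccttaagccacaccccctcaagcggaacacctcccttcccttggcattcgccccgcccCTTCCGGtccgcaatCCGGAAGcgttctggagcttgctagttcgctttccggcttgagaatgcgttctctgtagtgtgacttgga
Prpf4b: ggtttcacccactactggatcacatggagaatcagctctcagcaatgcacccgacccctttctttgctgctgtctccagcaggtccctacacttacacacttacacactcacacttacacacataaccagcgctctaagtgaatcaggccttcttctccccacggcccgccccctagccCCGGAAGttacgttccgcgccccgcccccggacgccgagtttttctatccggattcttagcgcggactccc
Prpf19: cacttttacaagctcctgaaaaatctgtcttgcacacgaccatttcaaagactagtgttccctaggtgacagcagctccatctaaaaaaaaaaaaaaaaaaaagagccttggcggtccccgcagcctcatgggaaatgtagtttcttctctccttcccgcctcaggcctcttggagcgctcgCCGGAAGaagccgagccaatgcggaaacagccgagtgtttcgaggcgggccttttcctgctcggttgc
Lsm6: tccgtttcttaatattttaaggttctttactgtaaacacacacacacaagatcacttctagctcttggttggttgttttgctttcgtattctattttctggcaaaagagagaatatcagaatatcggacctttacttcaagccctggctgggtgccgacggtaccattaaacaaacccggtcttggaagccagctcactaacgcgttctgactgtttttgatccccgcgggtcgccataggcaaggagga
Of the 39 genes of the 47 with an entry in the table, 14 (35.9%) held this core on either strand, against 7.83% of all genes in the table and 16.9% of the array genes with a mean of at least 4. The other motifs were searched the same way. The motif of the factor NRF1 was found in 8 genes (20.5%), against 10.4% of the brighter array genes. CCAAT was found in 15 (38.5%) against 41.4%, the GC box GGGCGG in 23 (59%) against 60.7%, the CRE TGACGTCA in 2 (5.13%) against 3.32%, and the motif of the factor YY1 in 1 (2.56%) against 0.868%. In the printed windows no other motif overlapped the marked cores. Among the 6 of the 8 block-risen genes with an entry, Prpf19, Prpf4b, Sf3b3 and Sf3b6 held the ETS core. A match describes letters in a window and was not tested for binding.

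Genes of snRNP assembly and transport and partners of the Prp19 complex were mixed in direction. Most snRNP subunits with other names had higher means in the mutants. Of 26 measured genes of snRNP assembly and transport, 11 had higher means in the mutants. This is beside 46.3% of all genes and 49.9% of those with a mean of at least 4. Without the block 0 of the 26 rose and 1 fell, beside 1.86% and 1.85% of all genes. The block gave 2 risen and 3 fallen, beside 6.6% and 4.94% of all genes. The gene that fell in both fits was Gemin5, which recognises the snRNA for the SMN complex. It averaged 10.06 ± 0.05 in mutant and 10.56 ± 0.13 in control preparations (SD, n = 4 each), with an adjusted p of 0.039. Smn1, the centre of that complex, was lower by 1.06 on the log2 scale in the mutants. Its adjusted p was 0.120, or 0.022 with the block. The other measured genes of the complex, Gemin2, Gemin7, Gemin8, Ddx20 and Strap, differed by 0.01, −0.18, −0.29, −0.03 and 0.11. None of these passed in either fit. With the block Tut1 also fell, with a difference of −1.18, while Coprs and Xpo1 rose, with differences of 0.84 and 0.64. Of 23 measured snRNP subunits with other names, 18 had higher means and 0 passed, while the block gave 3 risen and 1 fallen, and the median difference was 0.23. Of 17 partners of the Prp19 complex, 9 had higher means and 0 passed, while the block gave 3 risen and 2 fallen, and the median difference was 0.03. The shares of all genes given above are the background for these lists too.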

How the data were processed

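The values analysed are log2 intensities per probe set, deposited by the authors for 8 arrays. The submitters' processing notes name GCRMA and limma, without versions or roles; no other background correction was tried, as scanner files were not used here. Per the labels' protocols, round spermatids were separated on a bovine serum albumin gradient of 2% to 4%, RNA was extracted with Trizol and a column, and 2 µg was made into biotinylated cRNA. Array medians lay between 3.10 and 3.14.

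Of 45101 probe sets, 64 controls were left out. The platform annotation gave 34945 of the other 45037 probe sets a single gene, 932 several and 9160 none; symbols were updated by Entrez identifier (34741 found). Of the probe sets naming several genes, 10 carry a symbol of the group and were left out of its counts. The comparison used limma 3.58.1 under R 4.3.3 (lmFit, eBayes, mutant minus control), on all 18193 genes for gene values and on all 45037 probe sets for probe-set values, with Benjamini-Hochberg adjustment over each whole table and a threshold of 0.05. Tests were two-sided. Groups and replicate numbers came from the sample titles. Without the block, p-values rest on the spread between arrays of a group, each a pool of animals. With the block, they rest on the spread left after the replicate numbers are fitted.

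The replicate numbers were taken to pair the arrays. The reason was that same-numbered arrays deviated from their group means with correlations of 0.364, 0.416, 0.495 and 0.407 for pairs 1 to 4. All other mutant and control combinations correlated below 0. Deviations from a group mean sum to 0, so positive values for the pairs push the others below 0, and these add no further weight. The labels do not say what a number marks. The genes named by rule were those past the threshold, the 2 of each class with the smallest unadjusted p, and Snrpn and Snrpb. All other genes of the group, the genes of snRNP assembly and transport named beside Gemin5, and the motifs searched, were named after their values were seen. The members and gene lists were chosen with earlier results of these data known. The alternatives were the replicate block, leaving out arrays, a further quantile normalization, median centring, a minimum mean of 4, eBayes with trend and robust settings, and the mean of a gene's probe sets. Added after seeing the data were the block without each pair and the block with pairs 2 and 4 alone.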

Additional observations from a re-analysis of the deposited data

Results flagged for a closer look

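Snrpd3 stood apart on 1 array. Its log2 intensity on control array 3 was 7.34, against 9.02 to 9.14 on the other control arrays, a gap that takes up most of the range of the group. Of 32 groups of 4 arrays examined in the named genes, this was 1, and chance marks about 1 in 20.

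A probe set outside the gene counts, because it names both Gm7846 and Lsm5, the remaining subunit of the U6 Lsm ring, was higher in the mutants by 1.64. Its values were 7.50, 6.11, 6.22 and 5.64 in mutant preparations, against 4.67, 4.48, 4.96 and 4.79 in control preparations, without overlap. The limma adjusted p was 0.063, or 0.030 with the replicate block. Mutant array 1 was its highest array, as for Lsm6.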

How the results depend on the processing

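The median difference of the 47 genes stayed above 0 under all 20 alternatives, between 0.09 and 0.32, and 30 genes kept their sign throughout. These alternatives draw on the same 8 arrays. The median level of the 47 genes varied between arrays of a group with an SD of 0.227, which is above the main difference of 0.16. That SD is of single arrays and leaves out the pairing. The difference is a median over genes of differences between group means, so they are unlike measures. With the replicate block 1201 genes rose and 899 fell among all genes, 8 of the 47 rose, and 15 of their probe sets rose. Leaving out 1 array at a time gave 70 to 755 risen and 129 to 376 fallen among all genes, 0 to 1 risen of the 47 (Lsm3 without mutant array 4), and 0 to 1 risen probe sets. Without control arrays 1 and 3, 18 rose and 50 fell. A further quantile normalization gave 618 fallen, the minimum mean of 4 gave 1 risen probe set of the group, and trend and robust settings gave 1 risen gene (Lsm6) and 1 risen probe set. Under the block, all genes gave 627 risen and 521 fallen without pair 1, 1402 and 862 without pair 2, 79 and 115 without pair 3, and 358 and 308 without pair 4. Leaving out these pairs gave 0, 1, 4 or 6 risen and 0 to 1 fallen (Sf3b5, without pair 2) of the 47, and 6, 9 or 0 risen probe sets; pairs 2 and 4 alone gave 26 risen and 35 fallen, 0 of them in the group. Snrnp48 lay between −0.25 and 0.20 with 1 array left out, turning only without control array 1, and was 0.16 without control arrays 1 and 3 and 0.042 under the block without pair 1. Snrnp70 turned to −0.057 with the mean of its probe sets and Lsm14a to −0.077 with pairs 2 and 4 alone. The cause of these changes was not tested. The low signal of the probe sets used for Snrpn, Prpf4 and Prpf39 limits what their differences can show.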

Other observations

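The remaining probe sets that name a gene of the group together with others did not pass in either fit. Snrpd1, with Gm14277, differed by 0.47, Snrpd2, with Gm5848, by −0.01, and Snrpa, with Gm21559 and Gm5161, by −0.11. The 6 probe sets that name Snurf and Snrpn lay between −0.41 and 0.07.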
